A study of Homo sapiens with 27 samples.

Results

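The regions described here are 960 RNA peaks of 695 human genes that appeared in the 5-methylcytidine (m5C) peak list and in no other modification list of the same cell line. They are 960 of the 21827 peaks of the m5C list, and 695 of the 8537 genes to which an m5C peak naming 1 gene was assigned. Members were chosen by list membership, that is, by measured values: the peak had to name 1 gene, that gene could stand in no row of the N1-methyladenosine (m1A), N7-methylguanosine (m7G) and N4-acetylcytidine (ac4C) lists, and no summit of the pseudouridine (Psi) list could lie within the gene's span. Of the 21448 m5C peaks that named 1 gene, 1276 peaks of 918 genes met the condition on the antibody lists. Among these 1276 peaks, 32 peaks of 23 genes had no RefSeq span and were left out, and 284 peaks of 200 genes were barred by a Psi summit.

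The RNA came from HepAD38 cells, a human liver tumour line with an integrated hepatitis B virus genome, labelled wild type. All groups shared that genotype, with no treatment that set them apart. In all there were 27 libraries in 9 groups of 3. The groups used here were the m5C immunoprecipitate (IP), in which an antibody pulled down fragments of total RNA, and its input, the same kind of fragmented RNA before pull-down. IP and input libraries of the m1A, m7G and ac4C experiments and the 3 Psi libraries served to apply the rule. The stated purpose of the study was to ask whether RNA modifications take part in evolution. Each listed value is 1 pooled value per side, so no spread between libraries can be given, and the labels leave out whether a group's 3 libraries are separate cultures. The pooled depth was 118320068 reads for the m5C IP and 241116540 reads for its input. Of the 8 hepatocyte marker genes checked, 7 had an m5C peak (ALB, APOA1, APOB, TTR, TF, AFP and FGB), none of them a member. Of the 8 fibroblast and mesenchymal markers 1 had an m5C peak (FN1), of 3 immune markers 1 (CD68), and of 2 endothelial markers 0. A peak in at least 1 of the 4 antibody lists was present for 7 of the 8 hepatocyte and 7 of the 8 fibroblast and mesenchymal markers.

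5-Methylcytidine is cytidine with a methyl group on carbon 5 of the base. In RNA it is written mainly by the NSUN family and by TRDMT1 (DNMT2), abundantly in ribosomal and transfer RNA and more sparsely in messenger and long non-coding RNA. TET enzymes and ALKBH1 can oxidise it, and proteins such as ALYREF and YBX1 bind it, with known roles in nuclear export and stability of transcripts.

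The sequences where a peak could be placed letter by letter are given first, because they show how coarsely a peak marks the RNA. Peak widths followed a grid: 943 of the 960 widths (98.2%) were multiples of 25 bases, so a peak does not point to a single cytidine. The reference tables, taken from RefSeq (GRCh38.p14), held a hairpin for 4 of the 5 member microRNA genes. In the following hairpins, written 5′ to 3′, capitals mark the bases under the peak.
MIR320E: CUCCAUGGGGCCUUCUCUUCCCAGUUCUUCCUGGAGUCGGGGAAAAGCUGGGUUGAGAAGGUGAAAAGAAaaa
MIR4271: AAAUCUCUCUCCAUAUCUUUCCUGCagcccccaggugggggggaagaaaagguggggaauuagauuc
MIR4665: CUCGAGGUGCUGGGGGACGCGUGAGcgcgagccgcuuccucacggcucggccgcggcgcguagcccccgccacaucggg
MIR6758: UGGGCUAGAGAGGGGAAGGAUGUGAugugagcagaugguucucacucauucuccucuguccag
The MIR320E peak (chr19:46709285-46709354, minus strand) covered 70 of 73 hairpin bases and thus the whole mature strand. In the other 3 hairpins the peak covered 25 bases and began at the first base of the hairpin. The motif CUCCA, searched as these letters on the RNA strand because NSUN6 is known to favour it, occurred in the MIR320E and MIR4271 hairpins and not in the other 2.

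Mature microRNAs, which guide silencing complexes through the seed at bases 2 to 8, are written with the seed in capitals.
hsa-miR-320e: aAAGCUGGguugagaagg
hsa-miR-3911: uGUGUGGAuccuggaggaggca
hsa-miR-4271: gGGGGAAGaaaaggugggg
hsa-miR-4665-5p: cUGGGGGAcgcgugagcgcgagc
hsa-miR-6758-5p: uAGAGAGGggaaggaugugaugu
No seed was shared among these 5. Of the miRNA gene peaks, only that of MIR320E was higher in the IP than in the input by the test described below, on the scale of reads per 1000000 (RPM), with 62 IP reads and 13 input reads (RPM ratio 9.72, 95% counting interval 5.29 to 19.3). MIR4665 went the other way with 19 IP reads and 117 input reads (ratio 0.331, 0.192 to 0.540). For MIR6758 (135 and 264 reads), MIR4271 (89 and 188) and MIR3911 (20 and 22) the test found no difference, and the ratios were 1.04, 0.965 and 1.85. The peaks of MIR4271 and MIR4665 shared 17 and 25 bases with m5C peaks of C3orf62 and KIAA2026 on the opposite strand. The MIR320E sequence belongs to a family of similar copies, so its reads are uncertain in origin, and the labelled fragments of 200 to 500 bases are longer than any of these hairpins.

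For 2 long non-coding RNA genes with a peak that began at the annotated start, the first 50 bases are printed with the letters under the peak in capitals. Both were chosen for display after their values were seen.
LINC00294: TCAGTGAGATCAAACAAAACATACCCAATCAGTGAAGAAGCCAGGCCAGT
UGDH-AS1: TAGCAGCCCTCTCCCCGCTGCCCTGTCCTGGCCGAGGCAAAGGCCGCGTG
The LINC00294 peak (chr11:33076150-33076299, plus strand) had 259 IP reads and 597 input reads, a ratio of 0.884 (0.761 to 1.03). The UGDH-AS1 peak (chr4:39527839-39527913, plus strand) had 18 IP reads against 0 in the input and was at least 12.2-fold higher when the input is set to a floor of 3 pooled reads, a value that leaves out the counting error of the IP reads (lower 95% counting limit 8.96). A second UGDH-AS1 peak near the other end of that gene had 201 IP reads and 49 input reads (ratio 8.36, 6.09 to 11.7).

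PAX6, the eye and neural transcription factor with the most member peaks, has an annotated internal start whose preceding 250 bases (chr11:31800662-31800911, minus strand) run across a peak. Capitals again mark the letters under the peak.
PAX6: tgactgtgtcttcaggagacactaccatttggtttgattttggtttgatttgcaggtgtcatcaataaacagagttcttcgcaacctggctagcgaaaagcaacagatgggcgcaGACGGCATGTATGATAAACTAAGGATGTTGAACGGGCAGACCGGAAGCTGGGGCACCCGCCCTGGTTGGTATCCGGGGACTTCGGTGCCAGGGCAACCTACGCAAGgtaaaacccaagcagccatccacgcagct
The 106 capital letters, of which 24.5% are C, end directly before the letters gtaa, and this peak was lower in the IP, with 152 IP reads and 729 input reads (ratio 0.425, 0.354 to 0.507). In 3 further coding genes a peak ran over an annotated start, and the last 30 bases before that start lie wholly under the peak. These genes were also chosen after their values were seen.
LPXN: TTTTCTTACTTTTTATCTGGGCGTTGGCGT
EPHX3: CGCACCTACTCTGCATATGCCCCGCCCCTC
CTCFL: CCGCTCCGCGCCTGCGCACTGCCACCCTCC
LPXN, which encodes the focal adhesion protein leupaxin, had 675 IP reads against 25 input reads (ratio 55.0, 36.9 to 85.6). For EPHX3, an epoxide hydrolase gene, and CTCFL, the germline paralogue of CTCF, no input read was counted, and 43 and 49 IP reads made them at least 29.2-fold and 33.3-fold higher against the floor (lower limits 22.75 and 26.1).

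Start windows of 300 bases (250 before and 50 after each annotated start) were held by 506 of the 695 member genes, with 673 windows. Their median GC content was 64.3%, beside 65.0% for the 9307 windows of other genes with an m5C peak and 58.7% for all 35116 windows. CTCCA or its reverse complement TGGAG occurred in 66.0%, 60.9% and 63.2% of these windows. In 21 windows at least 20 letters lay under a member peak, and 28.6% of these stretches held either motif. The share was 17.7% of the 1367 such stretches of other m5C peaks, which were not matched in length to the members.

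In the pulled-down RNA, most member peaks held few reads, and more of them were higher in the IP than lower. The median member peak was 75 bases wide (quartiles 50 to 150, range 25 to 650), beside 125 bases for the other 20488 peaks naming 1 gene. It held 62 IP reads (quartiles 23.8 to 160.0, range 6 to 6017) and 50 input reads (quartiles 18 to 170.2, range 0 to 19330). For the other peaks the medians were 289 IP reads and 579 input reads. In RPM, which here is per peak and per 1000000 reads of the pooled depth and not per length, the median was 0.524 for the IP and 0.207 for the input, against 2.44 and 2.40 for the other peaks. Per 1000 bases of peak, the median input level was 2.74 RPM for members and 21.8 RPM for the others, and the IP level 6.18 and 21.1 RPM. The median of the RPM ratio, IP over input, was 2.30 for members (quartiles 1.04 to 5.43, range 0.185 to 114) and 0.971 for the others. Input with 0 reads was set to a floor of 3 pooled reads, which was needed for 57 member peaks (5.94%) and for 110 of the others (0.537%). The lists that chose the members rest on the same contrast, so these levels describe the members and support nothing further. The lists used by the rule came from pooled IPs of unequal depth, 17135274 reads for ac4C, 263344365 for m7G and 280714967 for m1A, and the part of depth in which genes were listed for m5C alone was not tested.

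**Figure D1:**
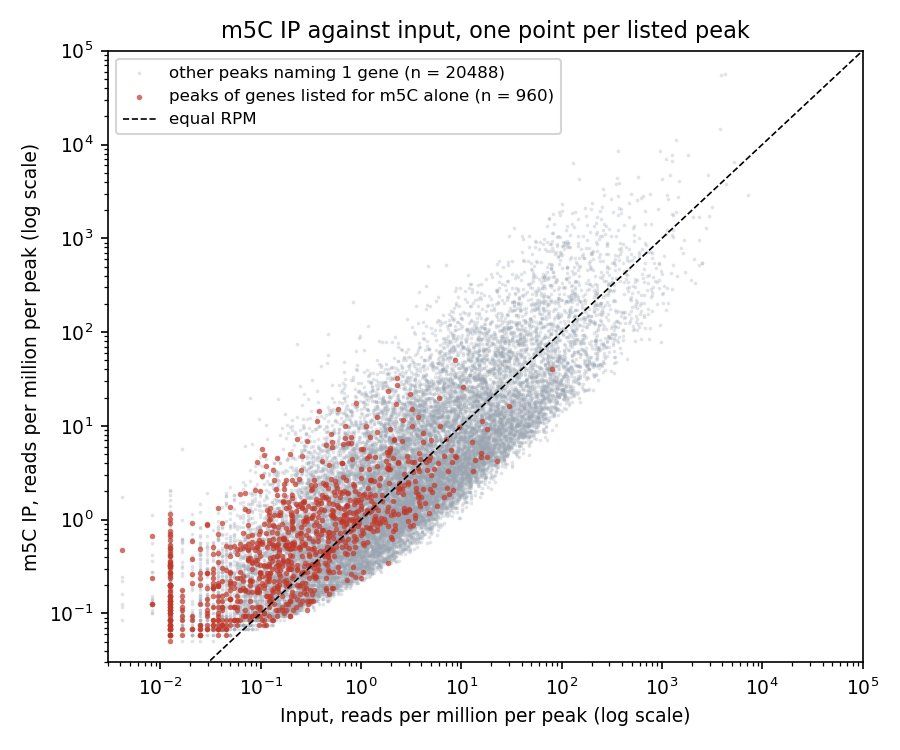
Each point is a listed m5C peak, with its input RPM on the horizontal and its IP RPM on the vertical log axis; red points are the 960 member peaks, grey points the other 20488 peaks that name 1 gene, and peaks with 0 input reads are drawn at the floor of 3 reads. Red points lie toward the lower left, with a median IP level of 0.524 RPM and a median input level of 0.207 RPM, and 222 of them lie below the dashed line of equal RPM.

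An exact two-sided binomial test compared the IP and input reads of every peak of the m5C list with the share given by the pooled depths, with Benjamini-Hochberg adjustment over all 21827 peaks. It compares pooled libraries and not replicates, and it uses the contrast by which the list was made. At an adjusted p under 0.05, 42.7% of all m5C peaks were higher and 42.6% were lower in the IP. Among the members 595 peaks (62.0%) were higher, 134 (14.0%) were lower and 231 (24.1%) did not pass. Of the 695 genes, 488 (70.2%) had at least 1 higher peak and 111 (16.0%) at least 1 lower peak. The RPM ratio was below 1 at 222 member peaks (23.1%), although the log2 enrichment given in the authors' deposited table was above 0 for all of them, with a lowest member value of 1.23, a median of 4.05 and a highest value of 9.25. No source used here says how that enrichment was computed.

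The number of input reads differed between the groups and moved with the share of higher peaks, so that share is given by input level. With 0 to 3 input reads, all 84 member peaks and all 158 others were higher. This was nearly fixed in advance, since the classes are cut on the denominator of the ratio and every listed peak held at least 6 IP reads. Up to 30 input reads no peak of either group was lower. At 4 to 10 reads the share was 68.5% for members and 81.2% for the others, and at 11 to 30 reads 70.2% and 61.1%. From 31 to 100 input reads, the class with the most members (265), it was 62.6% and 51.7%, and from 101 to 300 reads 56.5% and 44.6%. At 301 to 1000 reads the shares were 41.7% and 39.1%. Above 1000 reads they were 11.9% of 42 member peaks and 33.6% of 8207 others. The members therefore stood above the other peaks between 11 and 1000 input reads and below them at 4 to 10 reads and above 1000, and no test of these differences was made.

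**Figure D2:**
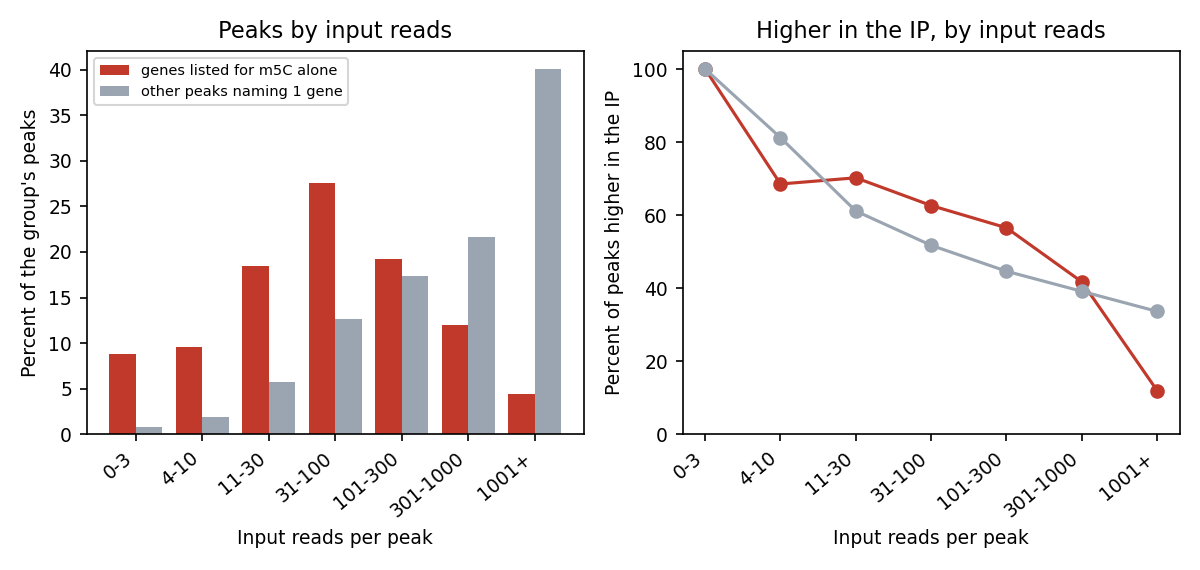
The left panel gives the percent of member peaks (red) and of other peaks naming 1 gene (grey) in each class of input reads; the right panel gives the percent of each class with higher RPM in the IP. In the class above 1000 input reads lie 4.38% of member peaks and 40.1% of the others, and in both groups the share of higher peaks goes from all peaks in the first class to 11.9% and 33.6% in the last. The classes are cut on the denominator of the ratio, so the share in the first class was nearly fixed in advance.

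Protein-coding genes with many reads were led by CCDC68, which encodes a centriolar appendage protein. Its single peak of 650 bases, the widest of all members, held 6017 IP reads and 2110 input reads (50.9 and 8.75 RPM, ratio 5.81, 95% counting interval 5.53 to 6.11). C2orf69, a gene for a mitochondrial protein, had 3819 and 551 reads (ratio 14.1, 12.9 to 15.5). The homeobox gene ZFHX2 had 3498 and 632 reads over 2 peaks (ratio 11.3), and ULBP1, a ligand of the NKG2D receptor of natural killer cells, 2809 and 853 (ratio 6.71). POU2F2, the lymphoid transcription factor OCT2, had 1582 IP reads and only 122 input reads in 2 peaks (ratio 26.4, 22.0 to 32.0). In each of these 5 genes every peak was higher in the IP, beside 62.0% of all member peaks. They are a choice, and POU2F2 was named for its wide peak of 525 bases. C19orf33, GBP3 and ATAD3C, described next, have more IP reads than POU2F2 and hold peaks that were lower or did not pass.

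C19orf33, second in IP reads, ran the opposite way. Its peak held 4790 IP reads and 19330 input reads (40.5 and 80.2 RPM, ratio 0.505, 0.489 to 0.521), and 4 m5C peaks of YIF1B on the opposite strand shared 33, 116, 122 and 113 of its 400 bases. Those peaks held 114 to 2779 IP reads and 624 to 11090 input reads, so the strand of origin of the C19orf33 reads is uncertain. GBP3, an interferon-induced GTPase gene with close paralogues, had 2521 and 3378 reads over 3 peaks, of which 1 was higher (ratio 4.71) and 2 did not pass (1.04 and 0.878). ATAD3C, a paralogue of the mitochondrial ATPase genes ATAD3A and ATAD3B, had 2364 and 1502 reads (ratio 3.21). For GBP3 and ATAD3C the near-identical copies make the origin of reads uncertain.

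Peaks with high enrichment and next to no input formed another set. In the authors' deposited table the member with the highest log2 enrichment was LINC01106, a long non-coding RNA, at 9.25. Its 2 peaks held 126 IP reads against 0 in the input, at least 85.6-fold higher against the floor (lower 95% counting limit 68.6). WDR93, a WD repeat gene, had 121 IP reads and FAM171A2 72, both against 0 in the input, at least 82.2-fold and 48.9-fold higher against the floor (lower limits 65.8 and 38.8). LINC02219 had 56 IP reads and 1 input read, a ratio of 114 whose interval ran from 19.7 to 4587. The snoRNA gene SNORA70D, in this set with 14 IP reads against 0, was at least 9.51-fold higher against the floor (lower limit 6.76). With so few input reads the sizes are loosely bounded, and the intervals and floors cover counting error only.

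Among genes with at least 100 input reads, the 5 lowest ratios all came with more than 1000 input reads. MISP, whose protein positions the mitotic spindle, had 577 IP reads and 5998 input reads in 2 peaks (ratio 0.196, 0.180 to 0.214). LDLRAD2 had 205 and 1829 reads (ratio 0.228), and FUOM, a fucose mutarotase gene, 139 and 1155 (ratio 0.245). SLC5A2, the renal sodium-glucose cotransporter SGLT2, had 246 and 2009 reads (ratio 0.25), and MINPP1, an inositol polyphosphate phosphatase gene, 224 and 1799 (ratio 0.254). All 7 peaks of these genes were lower in the IP, while the authors' deposited table gave their best peaks a log2 enrichment of 1.62 to 1.91. All 117 bases of the SLC5A2 peak lay within a C16orf58 peak on the opposite strand (847 and 7066 reads), and HSPG2 peaks on the opposite strand shared 50 and 25 of the 125 bases of an LDLRAD2 peak, so the strand of origin of these reads is uncertain.

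**Figure D3:**
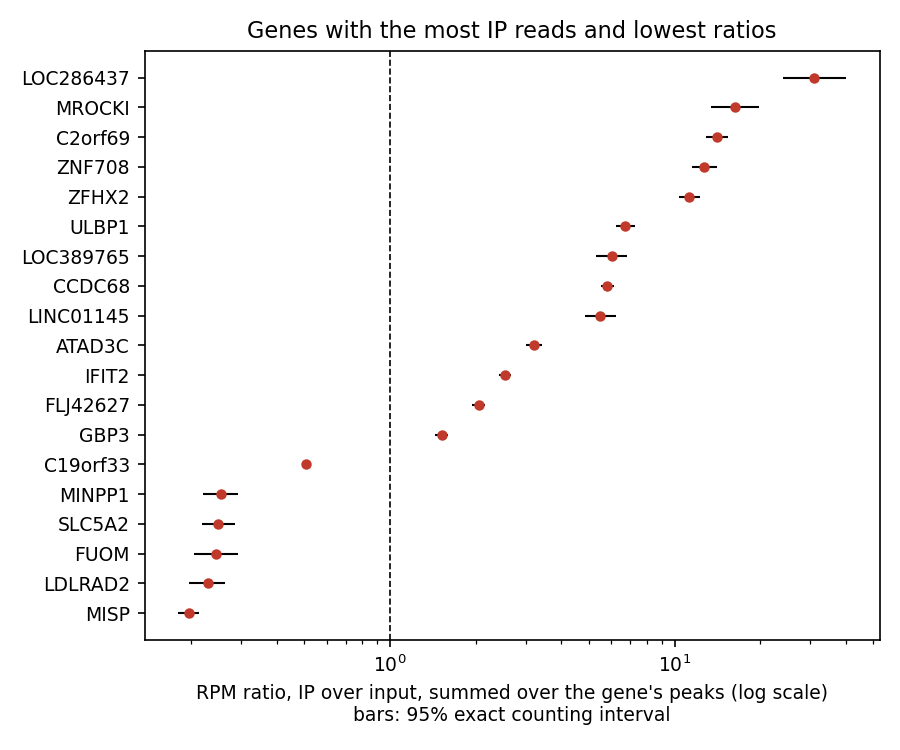
Points give the RPM ratio, IP over input, on a log axis for the member genes with the most IP reads, the non-coding genes with the most IP reads and the 5 genes with the lowest ratios, with reads summed over each gene's peaks; bars are 95% exact counting intervals and the dashed line marks equal RPM. Ratios run from 0.196 for MISP to 30.9 for LOC286437, and C19orf33 lies at 0.505, apart from the other genes with many IP reads.

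Long non-coding RNA genes made up 106 of the 695 member genes (15.3%), beside 3.56% of the other genes with an m5C peak, and transcribed pseudogenes 28 (4.03% beside 1.82%). Coding genes made up 551 (79.3% beside 93.5%). The 130 lncRNA member peaks had a median ratio of 3.83, with 107 higher (82.3%) and 5 lower. For the 782 coding member peaks the median ratio was 2.04, with 452 higher (57.8%) and 126 lower (16.1%). Their median input was 0.131 and 0.238 RPM. Among the m5C peaks of other genes, lncRNA peaks also had the larger median ratio, 1.63 against 0.955 for coding peaks, and the lower median input, 0.763 against 2.52 RPM.

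Of the non-coding genes with the most IP reads, LOC286437 on the X chromosome held 1015 IP reads and 67 input reads in 2 peaks, both higher (ratio 30.9, 24.1 to 40.2). MROCKI had 975 and 122 reads (ratio 16.3), and the transcribed pseudogene LOC389765 1015 and 344 in 3 peaks (ratio 6.01). FLJ42627 showed how far peaks of 1 RNA can differ. From 5′ to 3′, its 4 peaks had ratios of 7.60, 6.34, 0.366 and 0.710, the first pair higher and the last pair lower in the IP. Among genes named LINC, antisense or divergent transcript, 71 of 263 with an m5C peak were members (27.0%, beside 8.14% of all genes with an m5C peak). Of their 88 peaks 70 were higher and 3 lower, with a median ratio of 3.53. Among all member peaks 62.0% were higher and 14.0% lower. Examples are ATXN1-AS1 (743 and 109 reads, ratio 13.9), CCDC18-AS1 (892 and 192, ratio 9.47) and MAFG-DT (665 and 244, ratio 5.55). In LINC01145 1 of 4 peaks was higher (878 and 169 reads, ratio 10.6), and the other 3 did not pass, with ratios of 0.732 to 0.947.

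Small RNA genes contributed 10 of the 23 with an m5C peak (43.5%, beside 8.14% of all genes with an m5C peak). Among them was MIR3945HG, which is the long host RNA of a microRNA. The 4 snoRNA genes were SNORA70D, SNORD140, SNORD38A and SNORD63B, of which the first is of the H/ACA class, known for guiding pseudouridylation, and the others of the C/D class, known for guiding ribose methylation. All 4 of their peaks were higher in the IP, beside 62.0% of all member peaks. SNORD63B had 106 IP reads and 26 input reads (ratio 8.31, 5.37 to 13.3), over the full 73 bases of the gene. SNORD38A had 59 and 46 reads (ratio 2.61) and SNORD140 32 and 30 (ratio 2.17), both named after their values were seen. SnoRNAs lie in introns of other genes, and reads of the host precursor cannot be told apart from the mature RNA here.

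Zinc finger genes named ZNF or ZSCAN, known as DNA-binding regulators of which many lie in clusters on chromosome 19, gave 44 members of 239 genes with an m5C peak (18.4%). Over all genes with an m5C peak 8.14% were members. The 60 zinc finger peaks had a median ratio of 2.71, with 41 higher and 7 lower. Among all member peaks the median ratio was 2.30, with 62.0% higher and 14.0% lower. ZNF708 had 2817 IP reads and 452 input reads (ratio 12.7, 11.5 to 14.1), ZNF426 1775 and 783 (ratio 4.62), and ZNF564 1180 and 1467 (ratio 1.64). In ZNF791 the 575-base peak was higher (1191 and 772 reads, ratio 3.14) while a peak of 3 blocks upstream was lower (490 and 1953 reads, ratio 0.511). Chromosome 19 held 132 member peaks (13.8%) and 6.17% of the other peaks. Of those 132 peaks 37 belonged to 25 zinc finger genes, and without zinc finger peaks the shares were 10.6% and 5.64%.

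Membrane transport genes moved in both directions. Over all genes with an m5C peak 8.14% were members, and of all member peaks 62.0% were higher and 14.0% lower. Of 130 solute carrier genes with an m5C peak 21 were members (16.2%). Of the 26 solute carrier peaks 13 were higher and 5 lower, with a median ratio of 1.5. SLC16A4, a monocarboxylate transporter gene, had 278 and 129 reads (ratio 4.39), SLC27A1, which encodes a fatty acid transport protein, 316 and 299 (ratio 2.15), and SLC12A9 487 and 558 (ratio 1.78), all higher. Of 40 ion channel genes 9 were members (22.5%), with 7 of 15 peaks higher and 5 lower. The T-type calcium channel gene CACNA1H had 1003 IP reads and 7015 input reads in 3 peaks (ratio 0.291, 0.272 to 0.311). Its 2 large peaks were lower and the third, with 9 and 11 reads, did not pass. KCNE3, a potassium channel subunit gene, had a higher peak of 325 bases (993 and 999 reads, ratio 2.03) and a lower peak of 25 bases (51 and 175 reads, ratio 0.594). The chloride transporter gene CLCN4 had 228 and 162 reads with both peaks higher (ratio 2.87), and the ATP-gated channel gene P2RX4 657 and 1842 with 1 peak higher and 2 lower (ratio 0.727). Of 30 G protein-coupled receptor genes 4 were members by name (13.3%), and all 5 of their peaks were higher. The peak of GPR39 shared 71 of its 75 bases with a LYPD1 peak on the opposite strand. GPR34, a lysophosphatidylserine receptor gene, had 28 IP reads and 2 input reads (ratio 28.5, 7.19 to 247). The serotonin receptor gene HTR7 and its pseudogene HTR7P1 had 91 and 67 and 94 and 49 reads, with ratios of 2.77 and 3.91.

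Of 36 interferon and RNA sensing genes with an m5C peak 3 were members (8.33%, beside 8.14% of all genes with an m5C peak). Of their 6 peaks 4 were higher and 2 lower, beside 62.0% higher among all members. IFIT2, whose interferon-induced protein binds foreign RNA, had 2 higher peaks with ratios of 2.52 (3084 and 2495 reads) and 2.62 (582 and 452 reads). Its neighbour IFIT3 had 3 peaks, from 5′ to 3′ with ratios of 0.861 (390 and 923 reads), 0.317 (512 and 3288) and 1.42 (832 and 1196), of which the first pair was lower and the last was higher. OASL, an oligoadenylate synthetase-like gene, had 86 and 27 reads (ratio 6.49, 4.17 to 10.4). All 6 member peaks of the cytokine list (5 of 30 genes, 16.7%) were higher. IL10RB, a subunit of the interleukin 10 receptor, had 1356 and 635 reads (ratio 4.35), TNFSF14 234 and 227 (2.10), IL1A, which encodes interleukin 1 alpha, 192 and 208 (1.88), and the macrophage growth factor gene CSF1 414 and 457 (1.85).

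Plasma protein genes of hepatocytes were few among the members. Over all genes with an m5C peak 8.14% were members, and of all member peaks 62.0% were higher and 14.0% lower. Of 37 plasma protein genes with an m5C peak only SERPING1, the C1 inhibitor gene, was a member (2.7%). Its peak was lower (222 and 892 reads, ratio 0.507, 0.436 to 0.588). Of 8 cytochrome P450 and UDP-glucuronosyltransferase genes 2 were members, and all 3 peaks were lower. CYP1A1, which oxidises aromatic hydrocarbons, had 236 and 1235 reads (ratio 0.389), and CYP2S1 146 and 953 (ratio 0.312). Of member peaks with 301 to 1000 input reads 46.1% were lower, and of those above 1000 reads 76.2%. Matrix and adhesion genes were mixed. In LAMB3, a laminin 332 chain gene, the peak nearest the 3′ end was higher (259 and 140 reads, ratio 3.77) and the 4-block peak upstream lower (1922 and 7235 reads, ratio 0.541). ITGA3, an integrin subunit gene, had 112 and 418 reads in a lower peak (ratio 0.546). CLDN9 had 40 and 29 reads in a higher peak (ratio 2.81), and CLDN20 20 and 22 reads in a peak that did not pass (ratio 1.85). Of 5 keratin genes 2 were members: KRT81, which has near-identical relatives, with 2 of 3 peaks higher (ratio 1.44), and KRT7 with 16 and 18 reads and no peak past the test.

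Developmental and motor genes had few reads or mixed directions. HOXD9 had 18 IP reads against 0 in the input and was at least 12.2-fold higher against the floor (lower limit 8.96), and HOXA7 62 and 87 reads in 2 peaks, of which 1 was higher. Both HOXA7 peaks shared 42 of 50 bases with HOXA-AS3 peaks on the opposite strand that held nearly the same reads (30 and 28, and 32 and 32, in the IP), so they cannot be credited to either gene. Among kinesin and dynein names 3 of 37 were members (8.11%, beside 8.14% of all genes with an m5C peak). KIF21B had 244 and 1219 reads in 2 lower peaks (ratio 0.408), the axonemal dynein gene DNAH17 481 and 509 with 1 peak higher and 1 lower, and the antisense RNA KIF9-AS1, caught by its name, 69 and 25 (ratio 5.62) in a peak that shared 26 of 100 bases with a KIF9 peak. The linker histone gene H1-4 had 60 and 135 reads and did not pass (ratio 0.906). Of 72 cytosolic ribosomal protein names 1 was a member, RPL3L, a muscle paralogue of RPL3, with 27 and 6 reads (ratio 9.17, 3.71 to 27.2). No member came from the 56 mitochondrial ribosomal protein genes, the 31 cell cycle genes or the 5 genes with an m5C peak of a longer fibroblast and mesenchymal list than the 8 markers given above. The share over all genes with an m5C peak, 8.14%, stands beside each of these counts.

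No gene of the m5C machinery was a member, beside 8.14% of all genes with an m5C peak. In a list of 13 genes with an m5C peak, an absence lies near that share. Of the 19 writers, erasers and readers checked, 13 had an m5C peak, and each of them also stood in another antibody list: NOP2, NSUN2, DNMT1, ALYREF, YBX1, FMR1 and TET3 in all 3, NSUN5 in the m1A and m7G lists, TET2 in the m1A and ac4C lists, NSUN3 in the m7G list, NSUN4 in the ac4C list, and RAD52 and TET1 in the m1A list. NSUN6, NSUN7, TRDMT1, YBX2, SRSF2 and ALKBH1 had no m5C peak, named alone or with other genes.

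Most members had a single peak. Of the 695 genes 504 (72.5%) had 1 m5C peak, against 36.7% of the other genes, and 56 (8.06%) had 3 or more, against 38.6%. The median gene span was 18690 bases (quartiles 7205 to 42965), beside 33394 for the other genes and 60199 for the genes barred by a Psi summit alone. Of the 191 genes with 2 or more peaks, 70 had all peaks higher, 9 had all lower and 20 had at least 1 of each. PAX6, with 6 peaks, was among the mixed genes. Its most 3′ peak, which shares bases with an ELP4 peak on the opposite strand, was higher (255 and 114 reads, ratio 4.56, 3.64 to 5.74) and 4 of the other 5 were lower, with ratios of 0.425 to 0.588. SYTL4, which encodes the granule protein granuphilin, had 5 peaks, 3 of them higher with ratios of 4.08 to 7.13. HES2, a Notch-pathway repressor gene, had 5 narrow peaks with ratios of 1.19 to 1.43, none of which passed.

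Along the gene, member peaks lay more often near the 3′ end. With the gene span, introns included, cut into 10 equal parts, the part at the 3′ end held 42.5% of member peaks and 35.4% of the others, and the part at the 5′ end 9.79% and 13.6%. Within 500 bases of the 3′ end of the span lay 210 member peaks (21.9%) and 10.1% of the others. Within 500 bases of the 5′ end lay 89 (9.27%) and 9.53%. For peaks of genes in all 5 lists, whose median input was 4.20 RPM, the shares were 5.91% and 8.58%. Member genes were also shorter (above), and the part of gene length in these shares was not tested. Exon and intron limits were not used here. More than 1 block, as a spliced peak has, was listed for 217 member peaks (22.6%) and 36.5% of the others.

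Overlap by position with the other lists is largely fixed by the rule, which bars genes of those lists and Psi summits within the span, and is given as a description. In all, 8 of the 960 peaks (0.833%) shared a base with a peak of another list, against 63.3% of the other peaks naming 1 gene. All 8 overlaps were on the opposite strand, among them those under AFAP1, DDX11L9, KDM4A-AS1, MIR4271, PERM1, TH2LCRR and ZMYM4-AS1, named here because they are exceptions. For AFAP1, an actin filament adaptor gene, the opposite strand carried m5C, m1A and m7G peaks of AFAP1-AS1, and its own peak was lower in the m5C IP (114 and 713 reads, ratio 0.326). Same-strand overlaps and overlaps with Psi peaks numbered 0.

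Gene names at shared places were less certain. An m5C peak of another gene on the opposite strand shared bases with 63 member peaks (6.56%) and with 4.09% of the others. In 20 of these pairs the shared bases made up at least 80% of the wider peak, and the larger read number was at the median 1.02 times the smaller one in the IP and 1.07 times in the input. IP reads were within 10% of each other in 17 of the 20 pairs and input reads in 12, with highest quotients of 1.16 and 1.36. For BBIP1 and PDCD4 the IP and input reads were 690 and 475 on the first strand and 700 and 479 on the second, for NRG4 and FBXO22 558 and 290 against 561 and 287, and for GPR39 and LYPD1 39 and 36 against 39 and 37. The 137 such pairs without a member had the same median of 1.02 in the IP. In these pairs, named after their values were seen, reads of a gene and its antisense partner cannot be told apart with certainty, although the labels describe a stranded kit. PDCD4 and FBXO22 were not members, so the membership of BBIP1 and NRG4 rests on the name attached to a strand. Counting both strands and introns, 224 member peaks (23.3%) had their midpoint in the span of another RefSeq gene, against 2666 of the 20488 others, and for 112 (11.7%, against 7.21%) that gene stood in the m1A, m7G or ac4C list.

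The limit of the rule was close for some genes. Just inside it, MNX1-AS2 (111 IP and 85 input reads) ended 48 bases from a Psi summit, SLC4A3 (75 and 200) 85 bases and CEBPB-AS1 (38 and 26) 98 bases, and 37 member genes had a Psi summit within 1000 bases of the span. Just outside it, AFF1-AS1 (4891 and 845 reads), FBXL2 (4298 and 849) and FBXO33 (3109 and 330) had 1 Psi summit each, as had 143 genes in all that were barred by a single summit. A gene was barred by the m1A list alone in 515 cases, by the m7G list alone in 170 and by the ac4C list alone in 145, while 1777 genes stood in all 5 lists.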

How the data were processed

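RNA immunoprecipitation sequencing of HepAD38 total RNA was used as deposited. Per the submitters' processing notes, HISAT2, StringTie, DESeq and hg38 were used, without roles; no source used here names the caller of the antibody peaks. The deposited antibody lists give pooled IP and input RPM, a log2 enrichment and a p-value per peak from the authors. Psi peaks come from MACS 2.2.6 on 3 pooled alignments without a control, per the file headers, with deposited pileup signal, fold ratio and −log10 values. Stranded libraries carried 8-base unique molecular identifiers, per the labels.

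RPM steps gave whole reads for 100.0% of m5C values (within 0.1 read). The exact binomial test and exact Clopper-Pearson 95% intervals were computed with python 3.11.15, numpy 2.4.6, pandas 2.3.3 and scipy 1.17.1. The test was tried on simulated independent reads without spread between libraries. That trial cannot show how the test behaves where such spread exists. No count model over replicates could be used on pooled values. Intervals cover counting error only. Gene spans, types and synonyms (19 member genes) come from RefSeq GRCh38.p14; coordinates are hg38.

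Members and gene lists were chosen with earlier results of these data known. The rule for the 80 named genes, leaving out the Y chromosome (3 member peaks), took those with the highest deposited enrichment, most IP reads, most peaks, lowest ratio with at least 100 input reads, most IP reads among non-coding genes, widest peaks, up to 4 per gene list, those next to the Psi limit, and the m5C machinery. Other genes named were chosen after their values were seen. Alternatives for the rule, scaling, read minimum, windows and overlap were computed. Some genes that met the rule are not reported here.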

Additional observations from a re-analysis of the deposited data

How the results depend on the processing

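The number of member peaks was 960. It ranged from 913 to 1276 under 5 other forms of the rule, and was 2045 when only peaks above the median significance of each other list barred a gene, by construction since fewer genes were then barred. With only m5C peaks above that list's median significance, 309 members were left, of which 207 were higher and 50 lower. Higher counts of 542 to 593 and lower counts of 123 to 134 came from centring, a minimum of 20 reads and leaving out peaks that share bases with another gene's peak (for lower peaks this last one was added after seeing the data). The median ratio was 2.29 with 0.5 reads added and 2.43 with 1 value per gene. Input per 1000 bases was 2.74 RPM. Windows of 200 and 1000 bases gave 6.35% and 13% at the 5′ end and 11.4% and 33.2% at the 3′ end, beside 4.47% and 17.0% of the other peaks at the 3′ end. Overlap with other lists was 0.417% when at least 50% of the shorter peak had to be shared and 0.0% on the same strand. For each of the 80 named genes only the peak of highest deposited enrichment was recomputed, and all 261 values kept their direction and side of the threshold. That outcome was nearly fixed in advance. Leaving out peaks does not change the ratio of a kept peak, and centring divides it by 1.01. Values of peaks that an alternative dropped are not counted. In CACNA1H and PAX6 the recomputed peak did not pass the test, so their lower peaks were not covered. No paired analysis was possible because each listed value is pooled and carries no replicate number, and leaving out a replicate could not be run for the same reason. The lowest IP count of a member was 6 reads, and 84 members had 3 or fewer input reads, so their ratios are loosely bounded.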
